A study of Mus musculus with 6 samples.

Results

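Whole brains of 3-month-old mice were compared with those of 2-month-old mice, in animals with and without the neural cell adhesion molecule NCAM. The comparison takes all 6 arrays of the series: 2 brains at 3 months, 1 of each genotype, and 4 brains at 2 months, 2 of each genotype. All 6 were male C57BL/6J mice, described in the labels as separate individuals on the same genetic background, and RNA came from the total brain. One group of 3 carries a constitutive knock-out of Ncam, which is not limited to one cell type or time, and the other is wild type. In both genotypes the older animal is the one numbered replicate 3, so age and replicate number cannot be told apart, and each genotype holds n = 1 animal at 3 months against n = 2 at 2 months. The comparison asks which transcripts differ between the ages in the same direction in both genotypes.

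Immediate early genes are the first genes a cell transcribes after a stimulus, because the factors that switch them on are already present and need only to be phosphorylated. In the brain many of them, such as Fos and Egr1, respond to neuronal firing and are used as a record of recent activity, and their products in turn act on later genes. The same signal also induces its own brakes, among them Dusp1, a phosphatase that switches off MAP kinases.

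Every animal had a one-colour Affymetrix array of its own, and a level is given here as the deposited signal, a linear intensity that can be compared between arrays for one gene but not between genes. Differences are 3 months minus 2 months on the log2(signal + 16) scale with genotype as a covariate, each followed by its standard error from limma. Signals are listed for replicates 1, 2 and 3, the third being the 3-month brain, and where 3 are set against 3 others the knockouts come first. Of 12422 probe sets, 7453 were bright enough to be tested. The trimmed mean of the signal (96% of values kept) was 300.2 on each array and the median 119.2 to 130.2, and any pair of arrays correlated between 0.967 and 0.985 on the log2 scale. The brightest Ncam1 probe set read 276, 209 and 327 in the knockout brains (replicates 1, 2 and 3) and 1346, 1448 and 1216 in the wild-type brains. Markers of brain tissue were bright on every array, with Snap25 at 7585 to 8508, Mbp at 5592 to 6006 and Gfap at 561 to 804. A pair of 2-month knockout arrays stood apart in tissue content. Knockout replicate 2 had almost no signal for Gabra6, a receptor subunit of cerebellar granule cells (11.8 against 1254 to 1388 elsewhere), and knockout replicate 1 had a signal of 11613 for the pituitary hormone gene Gh (222 to 409.7 elsewhere).

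In the comparison of the ages 2 probe sets passed the test across all genes, both higher at 3 months, which is 0.0268% of those tested. None was lower at an adjusted p under 0.05 in limma, where 454 were lower at an unadjusted p under 0.05. In all, 470 probe sets (6.31%) had an unadjusted p under 0.05 and a higher 3-month level, and 454 (6.09%) a lower one. As a second reading that uses no test, a gene is called higher in both genotypes where its 3-month array lies above both 2-month arrays of its own genotype, in knockout and in wild type, and lower in both genotypes in the same way. This held upward for 1353 probe sets (18.2%) and downward for 1221 (16.4%). The balance of the directions depended on the scaling: with each array centred on its median signal, 815 were higher and 1919 lower. Without 1 of the 4 younger arrays the rule is easier to meet, with 1649 to 1801 higher and 1485 to 1629 lower. Shares of all genes given below are those of all 6 arrays on the deposited scaling. On the deposited scaling, both 3-month brains lay above all 4 younger brains for 848 of the 7453 probe sets. For 768 they lay below all 4, so a lack of overlap between the ages is common. With 1 probe set per gene, 5665 genes were tested, of which 1007 (17.8%) were higher and 968 (17.1%) lower in both genotypes. At an unadjusted p under 0.05 the gene counts were 361 higher (6.37%) and 355 lower (6.27%). The median difference over all tested probe sets was 0.0047, and the median standard error was 0.12. Across the 7453 probe sets the age differences of the genotypes correlated at 0.20 and had the same sign in 60.1%, a description of genes that are not independent of each other.

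The genes that passed were Dusp1 and Fos. Dusp1, the MAP kinase phosphatase, read 607 and 526 in the 2-month and 1178 in the 3-month knockout brains, and 513 and 522 against 1138 in wild type. Both 3-month brains had about the same signal and lay far above the 4 younger ones, which averaged 542 ± 43.7 (SD, n = 4). Dusp1 rose 2.11-fold, a difference of 1.08 ± 0.08 (SE) with an adjusted p of 0.0113 in limma. Fos, a component of the AP-1 transcription factors, read 208, 304 and 809 in the knockouts and 114, 147 and 668 in wild type. The ages did not overlap, although the 2-month knockout brains sat above the 2-month wild-type brains. Fos rose 3.81-fold (1.93 ± 0.19, adjusted p = 0.0363 in limma), by 1.62 in knockout and 2.24 in wild-type brains, and the interaction of genotype and age did not pass (unadjusted p = 0.12 in limma). A second Fos probe set was dim, at 34.0 to 68.1, and was not tested. Egr2, a zinc finger factor of the same early wave, read 96.1, 133 and 213 in the knockouts and 83.7, 82.7 and 214 in wild type, again with no overlap (1.02 ± 0.17, adjusted p = 0.187 in limma). An exact two-sided permutation of the ages within genotypes gave p = 0.111 for each of these genes, the smallest value its 9 arrangements allow.

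Both calls rested on few brains. Without wild-type replicate 1, 2 or 3 the adjusted p of Dusp1 was 0.104, 0.0928 and 0.102 in limma, and 0.0590 without knockout replicate 3. That of Fos was 0.104, 0.133 and 0.157 without these wild-type replicates, 0.167 without knockout replicate 1 and 0.0590 without knockout replicate 3. Their differences stayed between 1.01 and 1.12 for Dusp1 and between 1.62 and 2.24 for Fos over all 21 alternative settings, with adjusted p from 0.00756 to 0.200 for Dusp1 and from 0.00961 to 0.290 for Fos in limma.

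The promoters of these genes carry sites at which activity-dependent factors are known to bind, and the stretch before the start of transcription is shown for 6 genes that lead the groups described here. The sequences are the 250 bases before an annotated start, from RefSeq on GRCm38.p6, written 5′ to 3′ on the strand of the gene. In the first 4, capitals mark TGACG on either strand, the core of the cAMP response element (CRE), and the CArG box, the site of serum response factor. In Per1 they mark TGACG and the E-box CACGTG, and in Hspa1a the heat shock element pair GAANNTTC. The windows lie at chr17:26508473-26508722 (minus strand) for Dusp1, chr12:85473640-85473889 (plus) for Fos, chr10:67537619-67537868 (plus) for Egr2, chr15:101266596-101266845 (plus) for Nr4a1, chr11:69098699-69098948 (plus) for Per1 and chr17:34972157-34972406 (minus) for Hspa1a.
Dusp1: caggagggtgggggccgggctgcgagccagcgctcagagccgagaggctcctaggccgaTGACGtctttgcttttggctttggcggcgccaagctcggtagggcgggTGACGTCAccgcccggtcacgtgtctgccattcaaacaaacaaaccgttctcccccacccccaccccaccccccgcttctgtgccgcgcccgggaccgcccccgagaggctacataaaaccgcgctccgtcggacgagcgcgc
Fos: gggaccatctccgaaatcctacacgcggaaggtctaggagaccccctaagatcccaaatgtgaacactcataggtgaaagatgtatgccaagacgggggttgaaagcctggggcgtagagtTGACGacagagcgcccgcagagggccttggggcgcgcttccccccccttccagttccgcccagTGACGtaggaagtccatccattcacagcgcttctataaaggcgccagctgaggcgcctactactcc
Egr2: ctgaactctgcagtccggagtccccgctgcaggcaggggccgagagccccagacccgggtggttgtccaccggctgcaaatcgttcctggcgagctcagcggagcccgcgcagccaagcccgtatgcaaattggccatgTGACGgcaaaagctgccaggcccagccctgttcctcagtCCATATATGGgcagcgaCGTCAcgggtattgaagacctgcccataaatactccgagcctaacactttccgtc
Nr4a1: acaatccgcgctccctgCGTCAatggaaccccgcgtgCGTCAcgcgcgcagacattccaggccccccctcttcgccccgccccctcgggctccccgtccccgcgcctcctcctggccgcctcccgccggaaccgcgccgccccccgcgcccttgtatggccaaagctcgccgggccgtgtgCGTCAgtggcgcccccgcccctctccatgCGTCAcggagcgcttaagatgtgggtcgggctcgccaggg
Per1: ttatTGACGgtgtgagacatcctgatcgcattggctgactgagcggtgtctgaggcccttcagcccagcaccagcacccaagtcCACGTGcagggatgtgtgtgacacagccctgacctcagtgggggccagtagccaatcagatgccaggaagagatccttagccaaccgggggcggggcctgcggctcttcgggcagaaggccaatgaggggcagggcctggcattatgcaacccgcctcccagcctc
Hspa1a: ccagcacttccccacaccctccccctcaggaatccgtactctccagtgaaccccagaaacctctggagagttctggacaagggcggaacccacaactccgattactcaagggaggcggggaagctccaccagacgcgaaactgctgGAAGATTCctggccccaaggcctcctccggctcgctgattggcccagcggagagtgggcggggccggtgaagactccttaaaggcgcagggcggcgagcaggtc
Dusp1 holds a full CRE, TGACGTCA, which starts 143 bases before the start and contains a CRE core on each strand, and a further CRE core at 191 bases. Fos has CRE cores at 129 and 66 bases, and Egr2 has a CArG box at 72 bases between CRE cores at 111 and 55 bases. Nr4a1, which encodes an orphan nuclear receptor, has 4 CRE cores. Egr2 has 5 listed starts and Per1 has 2, and the start with the most matches is shown. The core is common: it was found before 19.8% of 27025 genes, the full CRE before 1.77%, the CArG box before 1.62%, GAANNTTC before 7.73% and CACGTG before 6.86%. Of the 37 tested immediate early genes with a window, 24 (64.9%) had the CRE core, and of the 17 such genes that were higher in both genotypes 11 (64.7%) had it, about the same share. The core was also found before 6 of 12 heat shock genes (50%) and 5 of 13 clock genes (38.5%). A match says only that these letters are present.

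Immediate early genes as a whole lay toward higher values at 3 months. The 5 lists of AP-1 factors, EGR and NR4A factors, other immediate early regulators, MAP kinase phosphatases with feedback inhibitors, and activity-regulated synaptic effectors name 76 genes, of which 56 were on the array and 46 were bright enough to be tested. Of these 46, 22 (47.8%) were higher in both genotypes against 17.8% of all genes, 3 were lower and 21 were neither. Counted by an unadjusted p under 0.05 in limma, there were 18 higher genes (39.1%, against 6.37% of all genes) and 1 lower gene. Leaving out Fos, Dusp1 and Egr2, for which the comparison was chosen, 19 of 43 genes (44.2%) were higher in both genotypes. By the unadjusted limma threshold of 0.05, 15 of the 43 (34.9%) were higher. The lists were drawn up with earlier results of these data known, so the remaining 43 genes are not free of that choice. Genes of a list are also not independent of each other, and each genotype has 1 brain at 3 months. The median difference of the 46 genes was 0.19, against -0.00042 for all genes, and it was 0.20 in knockout and 0.26 in wild type. The number higher in both genotypes was 24 without knockout replicate 1 and 26 without knockout replicate 2, the arrays that stood apart. Leaving out a younger array makes the rule easier to meet, and over all probe sets the number rose from 1353 to 1751 and 1696. After median centring 19 immediate early genes were higher (815 of all probe sets), and after quantile normalisation 21 (1234 of all probe sets). Under a stricter brightness filter, which tests fewer genes, 13 immediate early genes were higher. The number of them lower was 5 without knockout replicate 2.

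**Figure D1:**
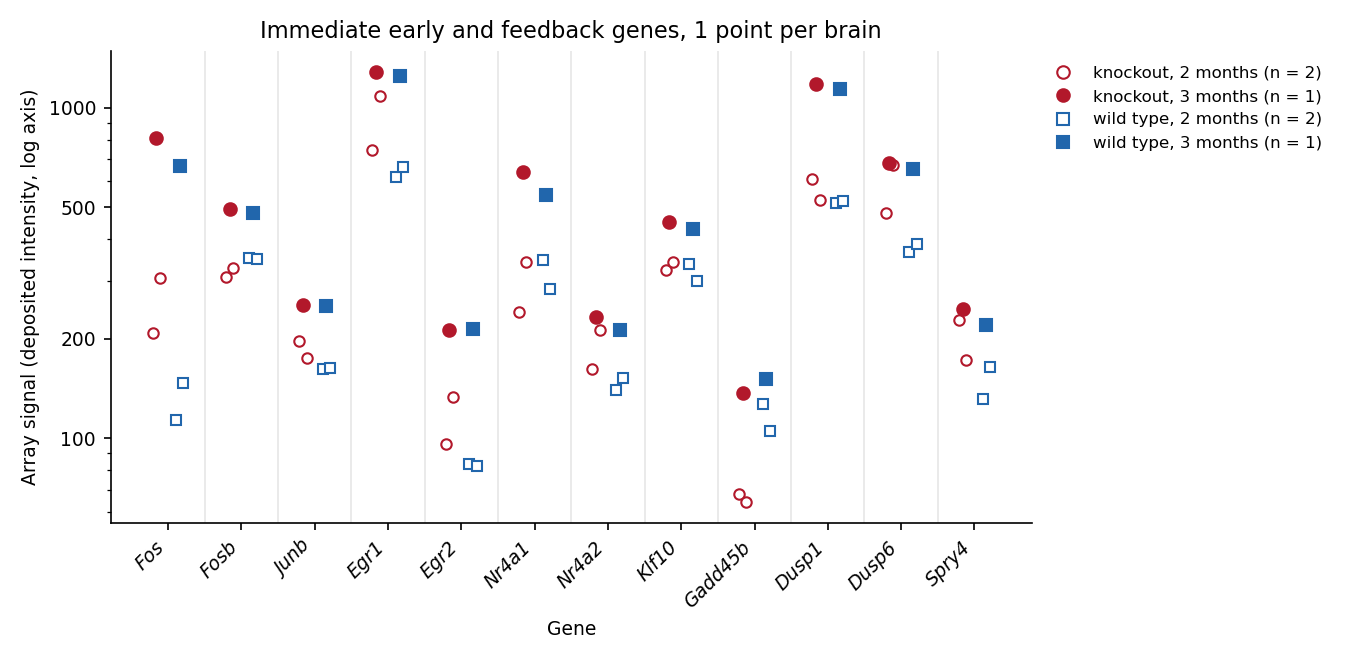
Signal of 12 immediate early and feedback genes (x axis) in each of the 6 brains, as deposited intensity on a log axis; circles are knockout, squares wild type, and filled symbols the 3-month brains. In every gene shown the filled symbol lies above both open symbols of its genotype, with the widest gap in Fos (809 and 668 against 114 to 304) and a narrow one in Dusp6 in knockout brains (682 against 672).

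AP-1 factors act as pairs of a Fos and a Jun protein. Of 6 tested genes, 3 (50%, against 17.8% of all genes) were higher in both genotypes, and the median difference was 0.30. These 3 include Fos, for which the comparison was chosen. Fosb read 308, 328 and 493 in the knockouts and 350.3, 348 and 481 in wild type (0.53 ± 0.09, adjusted p = 0.187 in limma). Junb read 197, 175 and 253 in the knockouts and 162, 163 and 252 in wild type (0.50 ± 0.11), from a probe set of a less specific kind. For both genes the 3-month brains lay above all 4 younger brains and close to each other. Jun, the partner most often named beside Fos, gave 159.7, 139 and 192 in the knockouts and 133, 184 and 134 in wild type, so the genotypes went opposite ways (0.07 ± 0.18). Jund (-0.01 ± 0.05) and Fosl2 (0.09 ± 0.21) were also neither higher nor lower in both genotypes.

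All 4 tested members of the EGR and NR4A families were higher in both genotypes, against 17.8% of all genes, with a median of 0.83. These families are zinc finger factors and orphan nuclear receptors of the first transcriptional wave. The list names 7 genes, of which 4 were on the array, and includes Egr2, for which the comparison was chosen. Nr4a1 read 242, 342 and 638 in the knockouts and 347, 284 and 544 in wild type (0.93 ± 0.16, adjusted p = 0.187 in limma). Egr1 read 744, 1081 and 1279.6 in the knockouts and 616, 661 and 1249 in wild type (0.73 ± 0.16, adjusted p = 0.243 in limma). The 2-month knockout replicate 2 came close to the 3-month level of Egr1, and without this array Egr1 also passed, at 0.87 with an adjusted p of 0.0368 in limma. This array had the highest 2-month signal, so leaving it out widens the difference. Without any other single 2-month array the difference was 0.65 to 0.72, with an adjusted p of 0.324 to 0.489 in limma. Nr4a2, which dopamine neurons also need, read 162, 213 and 233 against 140.2, 152 and 213 (0.40 ± 0.14), while its other probe set gave 0.00 ± 0.15. The median of this list was 0.67 to 0.94 over the 21 settings tried.

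Of 17 other immediate early regulators, 10 (58.8%) were higher and 2 (11.8%) lower in both genotypes, against 17.8% and 17.1% of all genes, with a median of 0.26. Klf10, a Krüppel-like repressor, read 324, 342 and 451 in the knockouts and 337, 298 and 431 in wild type, and both of its probe sets were higher (0.42 ± 0.09 and 0.52 ± 0.12). Gadd45b, a stress-induced regulator of growth arrest and DNA demethylation, read 67.7, 64.3 and 138 in the knockouts and 127, 105 and 151 in wild type (0.62 ± 0.18). Its 2-month level differed between the genotypes more than its 3-month level did. Btg2 (0.31 ± 0.09), Ier2 (0.40 ± 0.15), Ier3 (0.31 ± 0.10) and Nfil3 (0.42 ± 0.14) had an unadjusted p between 0.011 and 0.032 in limma. That value of Nfil3 is from a probe set of a less specific kind, and its other probe set gave 0.28 ± 0.18. Those lower were Ifrd1, a transcriptional co-regulator at 253, 254 and 207 in the knockouts and 177, 179 and 123 in wild type (-0.38 ± 0.11), and Klf6 (-0.16 ± 0.09).

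Of 8 tested MAP kinase phosphatases and feedback inhibitors, the brakes on the kinases that induce these genes, 4 (50%) were higher in both genotypes and 0 lower, against 17.8% and 17.1% of all genes, with a median of 0.18. Without knockout replicate 2 the numbers were 5 and 2. The list includes Dusp1, for which the comparison was chosen. Beside Dusp1, Dusp6, a phosphatase specific for ERK, read 480.0, 672 and 682 in the knockouts and 366, 386 and 651 in wild type (0.51 ± 0.16). In knockout brains the older animal barely exceeded replicate 2, and in wild type it was far above both. Spry4, an inhibitor of receptor tyrosine kinase signalling, differed by 0.41 ± 0.15, and Errfi1, an inhibitor of the EGF receptor, by 0.19 ± 0.08 and 0.45 ± 0.13 in its 2 probe sets. Dusp2 went opposite ways in the genotypes, with 333, 215 and 301 in the knockouts and 291, 323 and 153 in wild type.

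Of 11 tested activity-regulated genes with products at the synapse, 1 was higher in both genotypes (Pim1, a kinase, 0.25 ± 0.15) and 1 lower (Scg2, secretogranin II, -0.17 ± 0.08). This is 9.09% in each direction, against 17.8% and 17.1% of all genes, with 3 higher without knockout replicate 2 and 2 without knockout replicate 1 or wild-type replicate 2. Nptx1, a neuronal pentraxin of excitatory synapses, read 827, 560.4 and 710.4 in the knockouts and 697, 616 and 1324 in wild type, so the older brain stood out in wild type but lay between the younger ones in knockout. Bdnf, the neurotrophin, gave 0.11 ± 0.11. Arc is not on the array under its symbol. Of the kinases and factors that act before the immediate early genes (SRF, CREB and upstream kinases), 2 of 11 (18.2%) were higher and 3 (27.3%) lower in both genotypes, with a median of -0.07. The lower ones include Map2k1, the kinase that activates ERK (1374, 1568 and 1201 in knockout, 1348, 1275 and 1183 in wild type, -0.22 ± 0.08), and Crebbp, a co-activator of CREB (-0.23 ± 0.09). The number lower was 6 after median centring and 5 without knockout replicate 2. Of all probe sets, 1919 and 1594 were lower under these settings, against 1221 with all arrays as deposited.

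**Figure D2:**
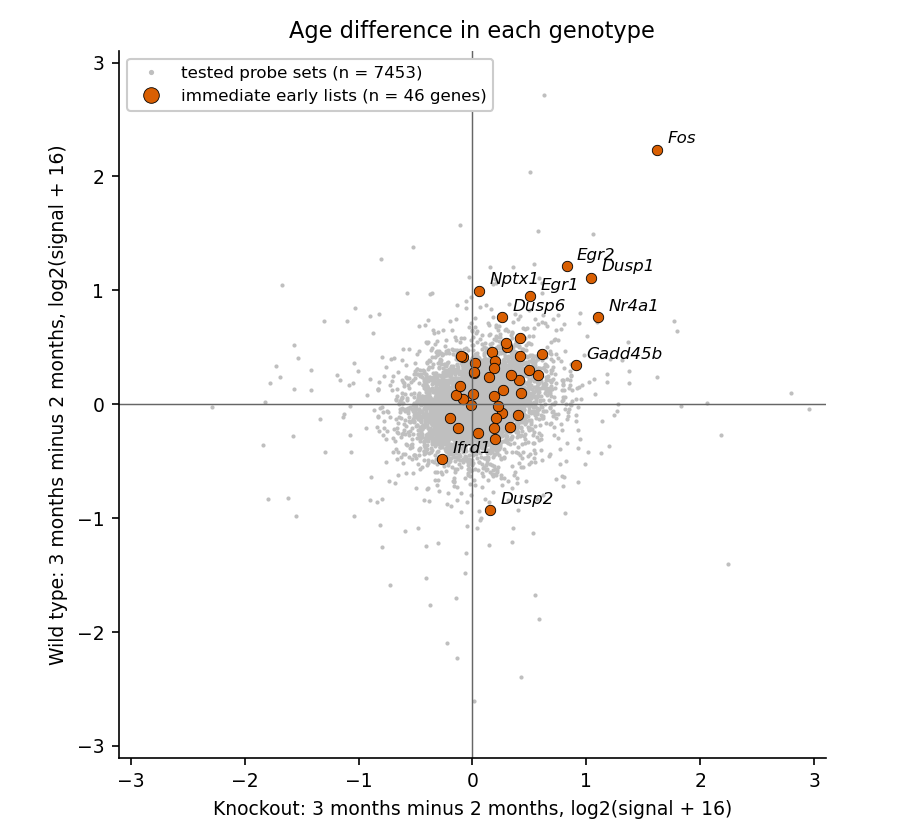
Age difference (3 months minus 2 months, log2 of signal + 16) in knockout brains (x axis) against that in wild-type brains (y axis) for 7453 probe sets (grey) and 46 immediate early genes (orange). Fos (1.62 and 2.24), Egr2 (0.83 and 1.21), Dusp1 (1.04 and 1.11) and Nr4a1 (1.11 and 0.76) lie in the upper right, while Nptx1 (0.06 and 1.00) and Dusp2 (0.16 and -0.93) do not.

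Of 16 tested genes of the circadian clock, 5 (31.2%) were higher in both genotypes and 1 (6.25%) lower, against 17.8% and 17.1% of all genes. Their median was 0.10, and 2 were lower after median centring or without wild-type replicate 1. Per1, a repressor of the clock that is also induced directly by CREB and by glucocorticoids, read 203, 184 and 288 in the knockouts and 118, 142 and 326 in wild type (0.89 ± 0.17, adjusted p = 0.230 in limma). Its 3-month levels lay above all younger levels, and the difference was 0.54 in knockout and 1.23 in wild-type brains. Bhlhe40, a repressor that answers both the clock and activity, read 492, 654 and 759 in the knockouts and 487, 542 and 736 in wild type (0.46 ± 0.12). The cryptochromes, partners of the PER proteins, were higher as well, Cry2 by 0.28 ± 0.09 and Cry1 by 0.26 ± 0.11. Dbp, an output gene of the clock, was lower, with 206, 120.3 and 119.9 in the knockouts and 209, 211 and 144 in wild type (-0.43 ± 0.19, unadjusted p = 0.0563 in limma). The activators Clock (0.01 ± 0.10) and Arntl (0.11 ± 0.12) were neither higher nor lower in both genotypes.

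Of 16 genes known to respond to glucocorticoids, 8 (50%) were higher and 1 (6.25%) lower in both genotypes, against 17.8% and 17.1% of all genes (median 0.16). After median centring the numbers were 5 and 4, and 3 were lower without wild-type replicate 1 and 2 without knockout replicate 2. Over all probe sets median centring also moved the counts, from 1353 higher and 1221 lower to 815 and 1919. Without wild-type replicate 1, 1629 of all probe sets were lower, and 1594 without knockout replicate 2. The higher genes include Per1 and Errfi1, already counted with the clock and the feedback inhibitors, so these lists are not separate. Cdkn1a, an inhibitor of the cell cycle, read 156, 139 and 221 in the knockouts and 133, 185 and 217 in wild type (0.48 ± 0.15). Its second probe set gave 0.70 ± 0.25, and it is also on the list of cell division. Fkbp5 (0.12 ± 0.10) and Ddit4 (0.16 ± 0.09), which are widely used readouts of this hormone, were higher in both genotypes without passing even the unadjusted threshold. Mt1, a metallothionein, was lower, at 4419, 4137 and 3506 in the knockouts and 4125, 4419 and 3364 in wild type (-0.31 ± 0.06, adjusted p = 0.230 in limma). Sgk1, a kinase induced by the hormone, read 605, 561 and 579 in the knockouts and 571, 558 and 1100.4 in wild type. The older brain stood out in wild type (0.94) and not in knockout (-0.01), and the interaction with genotype had an unadjusted p of 0.000625 and an adjusted p of 0.358.

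Heat shock proteins, the chaperones induced when proteins misfold, were higher in both genotypes in 8 of 15 tested genes (53.3%, against 17.8% of all genes). They were lower in 0 (17.1% of all genes), with a median of 0.10. Hspa1a read 258, 426 and 725 in the knockouts and 306, 311 and 518 in wild type (0.91 ± 0.18, adjusted p = 0.243 in limma). Hspa1b, a near-identical copy whose transcripts these probes may not separate, read 235, 321 and 558 against 186, 222 and 279.8 (0.71 ± 0.17). Dnajb1, the co-chaperone of HSP70, gave 0.41 ± 0.12, and Hspd1, the mitochondrial chaperonin, 0.16 ± 0.06. Hspa4 gave 0.24 ± 0.06, but its other probe sets gave -0.19 ± 0.11 and -0.08 ± 0.16. The abundant constitutive members Hsp90aa1 (0.05 ± 0.05) and Hspa8 (-0.02 ± 0.09) were neither. The heat shock element pair was found before 5 of 12 list members with a window (41.7%). After median centring 4 members were higher and 2 lower.

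Of 16 chaperones of the endoplasmic reticulum, 5 (31.2%) were higher and 3 (18.8%) lower in both genotypes, against 17.8% and 17.1% of all genes, so the share that was lower was near that of all genes. Manf (0.43 ± 0.11), Creld2 (0.43 ± 0.12) and Xbp1 (0.30 ± 0.10), which the unfolded protein response induces, were higher. Pdia3, a disulfide isomerase that works with calnexin, was lower, at 891, 995 and 682 in the knockouts and 645, 673 and 440.0 in wild type (-0.51 ± 0.08, adjusted p = 0.187 in limma). The 2 genotypes had different levels of Pdia3 at each age, and within each the older brain was the lowest. The number lower was 5 without knockout replicate 1.

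**Figure D3:**
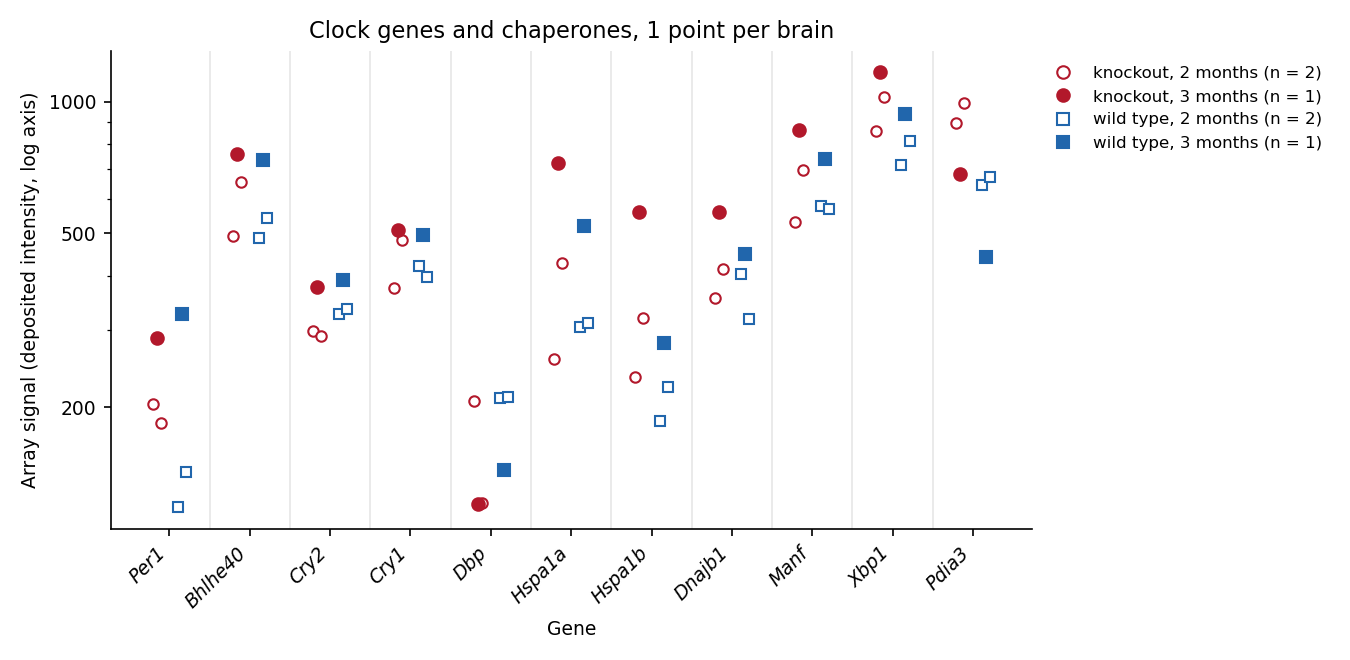
Signal of 5 clock genes and 6 chaperone or stress genes (x axis) in each of the 6 brains, as deposited intensity on a log axis; circles are knockout, squares wild type, filled symbols the 3-month brains. Filled symbols lie above the open ones of their genotype in all genes except Dbp and Pdia3, where they lie below, and for Dbp the 3-month knockout brain (119.9) is level with replicate 2 (120.3).

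Outside these lists, 5 further genes were among the 12 with the lowest p that were higher in both genotypes by more than 0.5. Clk1, a kinase of splicing factors, read 1074, 1088 and 1512 in the knockouts and 970.4, 936 and 1529 in wild type (0.58 ± 0.07, adjusted p = 0.122 in limma). Jmjd6, a Jumonji-domain hydroxylase, read 411, 401 and 593 against 389, 361 and 576 (0.56 ± 0.08, adjusted p = 0.146 in limma). Both showed tight 2-month groups with a clear gap to the older brains. Cdk9, the kinase that releases paused RNA polymerase II, differed by 0.52 ± 0.10, and Eif3f, a translation initiation subunit, by 0.75 ± 0.16. Gata4, a transcription factor known from heart and gonad, read 173, 166 and 369.7 in the knockouts and 45.1, 105 and 227 in wild type (1.28 ± 0.26), partly below the brightness limit of 72.2.

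Lower values at 3 months were led by single genes of varied function, none of which passed. Pus1, a pseudouridine synthase of transfer RNA, read 212, 250.1 and 124 in the knockouts and 288, 335 and 140.5 in wild type (-0.94 ± 0.13, adjusted p = 0.146 in limma). Skp1, the adaptor of SCF ubiquitin ligases, read 1936, 2144 and 1457 against 1889, 1754 and 1259 (-0.50 ± 0.07). Kif5b, a heavy chain of the motor kinesin, read 1194, 1169 and 747 against 1057, 1134 and 813 (-0.54 ± 0.08). In all of them both 3-month brains lay below all 4 younger brains. Impact, an imprinted gene whose product restrains the kinase GCN2, read 777, 1177 and 546 in the knockouts and 811, 777 and 323 in wild type (-1.02 ± 0.17), from a less specific probe set. Without knockout replicate 1 Impact passed, at -1.18 with an adjusted p of 0.0144 in limma. That setting keeps knockout replicate 2, which had the highest 2-month signal (1177), as the only 2-month knockout, and so widens the difference. Without any other single 2-month array Impact did not pass, with an adjusted p of 0.223 to 0.461 in limma. Rasl11b, a small GTPase (-0.56 ± 0.10), Tcf25 (-0.57 ± 0.11, second probe set -0.39 ± 0.11) and Sh3gl3, an endophilin (-0.59 ± 0.12), were also lower in both genotypes. Arih1, a ubiquitin ligase, gave -0.51 ± 0.09 in one probe set and 0.14 ± 0.12 in another, and Clcn7, a lysosomal chloride transporter, -0.85 ± 0.18 and -0.02 ± 0.11.

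Of 11 tested genes of excitatory neurons of the hippocampus and cortex, 6 (54.5%) were lower in both genotypes against 17.1% of all genes, and 1 (9.09%) was higher against 17.8%, with a median of -0.16. Knockout replicate 2, the array with little cerebellar signal, was the highest for this list. Its summed signal was 9322, against 8349 to 8398 in the other 2-month brains and 7430.2 and 7742 at 3 months. Without it the number lower was again 6, with a median of -0.16. Tbr1, a transcription factor of deep-layer cortical neurons, read 1034, 1482 and 891 in the knockouts and 1102, 1051 and 818 in wild type (-0.43 ± 0.13). Crym, a thyroid hormone binding protein, read 292, 345 and 201 against 275, 259.9 and 221 (-0.44 ± 0.12), and Lmo4, a LIM-only factor, gave -0.28 ± 0.07. Neurod6, a factor of pyramidal neurons, read 94.1, 209 and 79.3 against 76.5, 103 and 18.9, a difference of -1.16 ± 0.32 from a dim probe set. Camk2a, a kinase of the postsynaptic density, read 283, 293 and 144 in the knockouts and 290.1, 277 and 244 in wild type (-0.57 ± 0.16), and its second probe set -0.20 ± 0.13. Neurod2, another factor of pyramidal neurons, went the other way (0.18 ± 0.08). The number lower was 9 without wild-type replicate 2. The median of the list was negative under all 21 settings tried, from -0.30 to -0.11. In whole-brain RNA, fewer cells of a type and less RNA per cell cannot be told apart.

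Of 15 genes expressed by neurons in general, 4 (26.7%) were lower and 1 (6.67%) higher in both genotypes, against 17.1% and 17.8% of all genes, with 8 lower after median centring and 7 without knockout replicate 1. Over all probe sets, 1919 and 1603 were lower under these settings, against 1221 with all arrays as deposited. Syt1, the calcium sensor of vesicle release, read 3114, 3289 and 2834 against 2863, 2996 and 2754 (-0.13 ± 0.06), while Snap25 gave 0.06 ± 0.05.

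Of 17 genes of immature neurons and growth cones, 5 (29.4%) were lower and 2 (11.8%) higher in both genotypes, against 17.1% and 17.8% of all genes, and the median was 0.01. None passed. The number higher was 4 without knockout replicate 2 and 3 without knockout or wild-type replicate 1. Marcks, a substrate of protein kinase C that binds actin, read 984, 1036 and 748 in the knockouts and 978, 1024 and 779 in wild type (-0.39 ± 0.07, adjusted p = 0.229 in limma). Its relative Marcksl1 read 1190.0, 1486 and 916 against 1216, 1452 and 950.3 (-0.50 ± 0.11), and Gap43, which marks growing axons, 2537, 2782 and 2162 against 2742, 2684 and 2138 (-0.32 ± 0.06). In each of these genes both 3-month brains lay below all 4 younger brains and close to each other. Of all 7453 probe sets, 768 lay below in this way. Dcx, a microtubule protein of migrating neurons, gave -0.20 ± 0.11. Nes, the intermediate filament of neural progenitors, was higher (0.41 ± 0.13), as was Dpysl2, a phosphoprotein of axon growth (0.27 ± 0.12). Sox11, a factor of newborn neurons, had differences of opposite sign in the genotypes.

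Of 12 tested myelin genes, 0 were higher and 5 (41.7%) lower in both genotypes, against 17.8% and 17.1% of all genes, and none passed. At an unadjusted p under 0.05, 4 were lower, the median was -0.03, and 1 was higher without wild-type replicate 1 or after quantile normalisation. Cldn11, which seals the myelin sheath with tight junctions, read 1434, 1379 and 824 in the knockouts and 1097, 1391 and 867 in wild type (-0.63 ± 0.11, adjusted p = 0.187 in limma). Its dimmer probe set gave -0.22 ± 0.23, with -0.54 in knockout and 0.09 in wild type. Mal, a proteolipid of compact myelin, read 1284, 1359 and 1081 against 1382, 1286 and 1059 (-0.31 ± 0.07), Gsn, an actin-severing protein of oligodendrocytes, gave -0.29 ± 0.08, and Mobp, a basic protein of the sheath, -0.15 ± 0.05. Mbp, the most used marker of compact myelin, read 5657, 5592 and 5700.3 against 6006, 5954 and 5989, with no difference by age (0.01 ± 0.05). Sox10, the lineage factor of oligodendrocytes, was level too (0.04 ± 0.08). The median turned positive (0.02) when all probe sets of a gene were averaged.

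**Figure D4:**
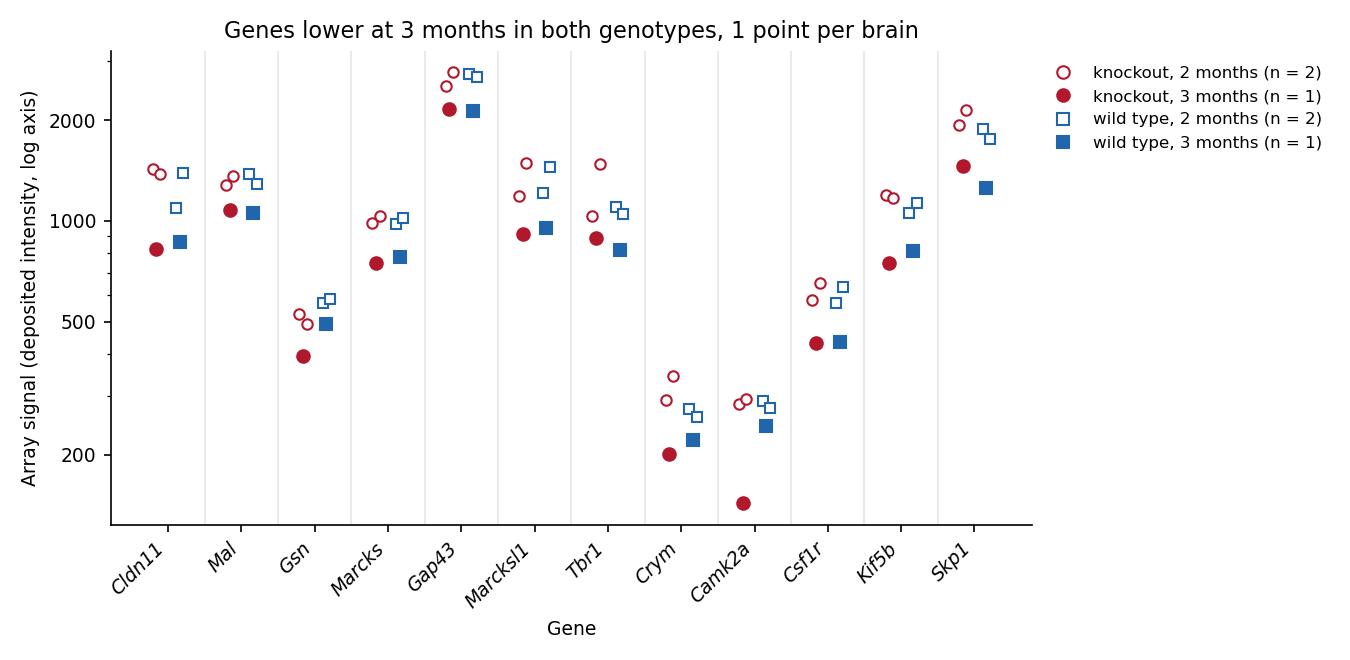
Signal of 12 genes that were lower at 3 months in both genotypes (x axis) in each of the 6 brains, as deposited intensity on a log axis; circles are knockout, squares wild type, filled symbols the 3-month brains. Both filled symbols of Marcks (748 and 779), Gap43 (2162 and 2138) and Skp1 (1457 and 1259) lie below all open ones, while for Camk2a the knockout brain (144) lies much lower than the wild-type brain (244).

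Subunits of the large protein complexes of the cell showed small differences. Of 48 genes of the mitochondrial respiratory chain, 5 (10.4%) were higher and 11 (22.9%) lower in both genotypes, against 17.8% and 17.1% of all genes, with a median of -0.02, 17 lower after median centring, and 10 and 9 higher without wild-type replicate 1 and knockout replicate 2. Over all probe sets, median centring gave 1919 lower, and leaving out these arrays gave 1801 and 1696 higher. The complex I subunits Ndufb9 (-0.19 ± 0.08) and Ndufs1 (-0.16 ± 0.07) had the lowest p among the lower genes of this list. Of 22 cytosolic ribosomal proteins, 2 (9.09%) were higher and 3 (13.6%) lower, also with a median of -0.02. Among cholesterol synthesis genes 4 of 17 (23.5%) were higher and 1 (5.88%) lower, led by Fdft1, squalene synthase (0.30 ± 0.07), but 3 were higher and 4 lower after median centring, and 7 were higher without knockout replicate 2.

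**Figure D5:**
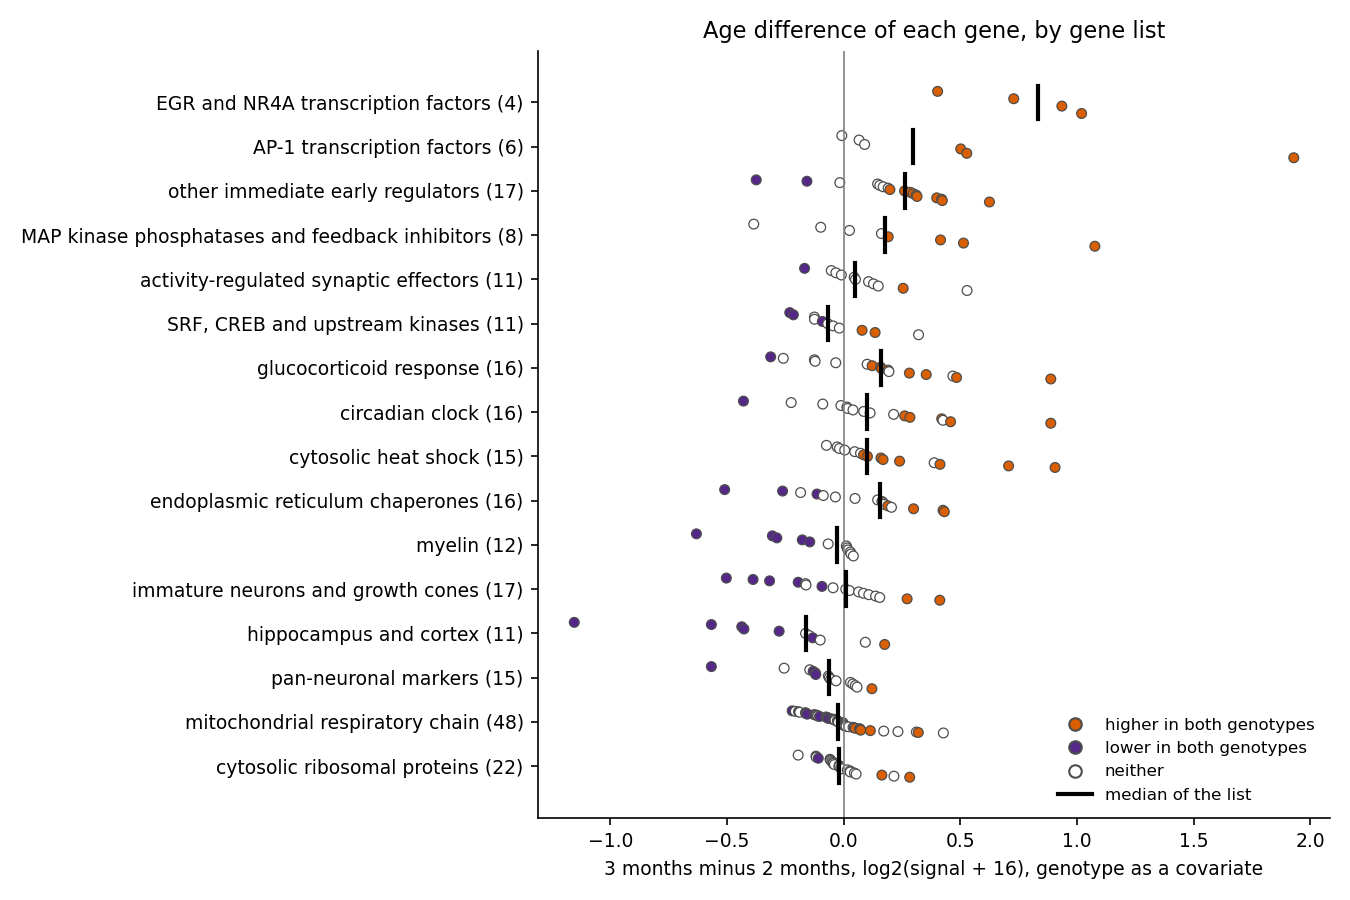
Age difference (3 months minus 2 months, log2 of signal + 16) of each tested gene in 16 gene lists, with the number of genes in brackets; orange marks genes higher and purple genes lower in both genotypes, and the bar is the median of the list. Medians run from 0.83 for EGR and NR4A factors to -0.16 for hippocampus and cortex, and the other lists of neurons, myelin, mitochondria and ribosomes have medians between -0.06 and 0.01.

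In 16 genes of astrocytes and reactive glia 1 was higher and 1 lower in both genotypes (6.25% each, against 17.8% and 17.1% of all genes). The lower one was Mt1, described with the glucocorticoid list, and Gfap gave -0.04 ± 0.17. In 13 microglial genes 3 (23.1%) were higher and 1 (7.69%) lower, with 3 lower without knockout replicate 1 and 2 without knockout or wild-type replicate 2. Csf1r, the growth factor receptor of microglia, read 581, 654 and 431 in the knockouts and 567, 634 and 436 in wild type (-0.47 ± 0.09, adjusted p = 0.230 in limma), but its dimmer probe set gave 0.14 ± 0.21. Cd14, a co-receptor of innate immunity, was higher (0.45 ± 0.12), and C1qa and Cx3cr1 were neither.

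Genes of tissue at the edge of the dissection were examined because 2 younger arrays stood apart in them. The summed signal of 17 cerebellar genes was 6042 in knockout replicate 2 and 14405 to 16046 in the other 5 brains. Their median age difference was 0.37 over all arrays, 0.04 without knockout replicate 2 and -0.06 in wild-type brains. The summed signal of 8 pituitary genes was 16466 in knockout replicate 1 and 1727 to 2125 elsewhere. The 3-month knockout and wild-type brains had cerebellar sums of 16011 and 15444 and pituitary sums of 2125 and 1929, close to the younger brains other than those 2 arrays. Choroid plexus genes summed to 4845 and 4706 at 3 months and 3791 to 4842 at 2 months, and Ttr, their most used marker, was higher in both genotypes (1875, 1294 and 2103 against 1734, 1633 and 2031, 0.35 ± 0.13). Blood cell genes summed to 6313 and 4828 at 3 months and 5225 to 7451 at 2 months. The part of tissue content in the other age differences was not tested beyond leaving out single arrays.

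Few probe sets passed the test for an age difference that depended on genotype. With 1 brain per 3-month arm, this test cannot show that such differences are rare. The interaction of genotype and age passed for 2 probe sets in limma, with 425 at an unadjusted p under 0.05. Ada, adenosine deaminase, read 70.8, 82.4 and 422 in the knockouts and 311, 249 and 95.6 in wild type, so the older brain was higher in knockout and lower in wild type (a difference of 3.64 ± 0.29 between the age differences, adjusted p = 0.0294 in limma). Each 3-month arm is 1 brain, so the spread in this test comes from the pairs of 2-month brains and from limma's prior, and neither probe set was called without the brightness filter or without the mean-dependent prior.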

How the data were processed

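RNA from 6 total mouse brains (10 µg each) was hybridised to Affymetrix arrays, 1 per animal. The deposited values are a linear signal intensity per probe set, made by the authors with GCOS 1.4, per the submitters' processing notes. Its settings and scaling, and the hour of dissection, are not given in the sources used. From the values, every array has the same trimmed mean, leaving out 2% at each end, and no other normalisation was applied here. Of 12488 entries, 66 controls were left out. Of the 12422 probe sets, 10833 had 1 gene symbol, 396 several and 1193 none in GEO's platform annotation, and 10817 of the symbols were matched to RefSeq. The number of arrays limits the precision.

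Groups came from the labels. Signals were put on the log2 scale after adding 16, and the 40% of probe sets with the lowest mean were left out (below a mean log2 of 6.46, a signal of 72.2). limma 3.58.1 in R 4.3.3 fitted age and genotype to all 6 arrays with a mean-dependent prior, and p-values were adjusted by Benjamini-Hochberg over 7453 probe sets. A fold is on the scale of log2(signal + 16) and understates changes of dim genes. The interaction came from a fit of the 4 groups of genotype and age. The fit was tested on simulated data. Gene counts use the brightest probe set of each gene. The 34 gene lists hold 738 genes, of which 435 were tested. The members, lists and rules were chosen with earlier results of these data known. Tables and figures used Python 3.11.15, pandas 2.3.3 and matplotlib 3.10.9.

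Genes were named by a rule: every probe set of Fos, Dusp1 and Egr2; in each direction 12 genes, those past the threshold first and then those with the lowest p that lay on one side in both genotypes by more than 0.5; members of the 5 immediate early lists on one side in both genotypes at an unadjusted p under 0.05; the leading 3 of each other list in the direction of its median; and Fosb, Junb, Jun, Egr1, Nr4a1, Arc, Ier2, Btg2, Sgk1, Per1, Gfap, Mbp, Dcx, Sox11, Col1a2, Igf2, Ttr, Gabra6, Gh and Ncam1. A further gene fixed by name is not reported here. Named after their values were seen were Ada, Arntl, Bdnf, C1qa, Cd14, Clock, Cry1, Crym, Cx3cr1, Dbp, Ddit4, Dnajb1, Dusp2, Fkbp5, Fosl2, Gap43, Hsp90aa1, Hspa8, Hspd1, Jund, Klf6, Marcks, Mobp, Neurod2, Nptx1, Pcna, Pim1, Scg2, Snap25, Sox10 and Tbr1.

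Motifs were searched on both strands of the 250 bases before each RefSeq start: TGACG, TGACGTCA, the CArG box, GAANNTTC and CACGTG; TGACGTCA contains TGACG. Alternatives were other scalings, pseudocounts and filters, other forms of the fit, each genotype alone, and leaving out each array.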

Additional observations from a re-analysis of the deposited data

Results flagged for a closer look

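In 6 of 103 named genes, 1 of the 4 brains at 2 months lay far from the other 3 by Dixon's test, which flags about 1 in 20 groups by chance. Gabra6 had a signal of 11.78 in knockout replicate 2 against 1254 to 1335, and Gh had 11610 in knockout replicate 1 against 222.4 to 376.8, as given with the cerebellar and pituitary lists. Dusp1 had 607.2 in knockout replicate 1 against 513.4 to 525.6, still well below the 3-month brains. Impact had 1177 in knockout replicate 2 against 777.2 to 811, and Cldn11 had 1097 in wild-type replicate 1 against 1379 to 1434. Dpysl2 had 283.4 in knockout replicate 1 against 220.3 to 230.1.

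The age difference itself differed between the genotypes at an adjusted p of 0.0294 in limma for 2 probe sets. For Ada the knockout difference exceeded the wild-type one by 3.64 on the log2 scale. For a probe set without a gene symbol here it did so by 2.82, with signals of 289, 326 and 419 in the knockouts and 342, 393 and 56.8 in wild type.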

How the results depend on the processing

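Dusp1 was called under 15 and Fos under 12 of 21 settings, and Egr2 under none of the 20 that tested it. The number higher at 3 months in limma was 1 without the genotype covariate or without the brightness filter, 8 in wild-type arrays alone (1 array against 2, with the spread from the 2-month pair and the prior), 0 in knockout arrays alone (609 at an unadjusted p under 0.05 in both directions) and 0 without the mean-dependent prior (882). It was 0 to 3 when single arrays were left out, with 0 without wild-type replicate 1, 2 or 3 (854, 664 and 791 at an unadjusted p under 0.05). The number lower was 7 in wild-type arrays alone, 3 as the average of a fit with interaction, and 0 to 3 when single arrays were left out. Counts in both genotypes became 815 higher and 1919 lower after median centring, 2375 higher without the filter and 841 higher with a filter at the 60th percentile. Within 1 genotype, 2820 lay above and 2651 below in wild type, and 2772 and 2619 in knockout. Without a 3-month array no count in both genotypes can be given. Immediate early genes higher in both genotypes numbered 13 with the 60th percentile filter, and those lower 3 to 5 when single 2-month arrays were left out. The interaction was called for 0 probe sets without the filter (780 at an unadjusted p under 0.05 in limma), 0 without the mean-dependent prior (465), 4 with array weights, and 1 with the 60th percentile filter, with 1 probe set per gene or with probe sets averaged by gene. Of 2140 values of 103 named genes over 21 settings, 2113 kept their sign.

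Animals numbered alike deviated together with a correlation of 0.015, 0.15 and 0.20 for numbers 1, 2 and 3. The highest correlation with an animal of another number was 0.081, 0.081 and -0.0068, so numbers 2 and 3 exceeded it. For number 3 a shared deviation cannot be told apart from age. The main fit did not take the numbers as a pairing. A fit with the replicate block called 2 probe sets in limma, both upward, while 886 had an unadjusted p under 0.05.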

Other observations

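Of 17 genes of cell division, 4 were higher and 4 lower at 3 months in both genotypes, 23.5% each against 17.8% and 17.1% of all genes. Ccna2, a cyclin of S phase, read 185, 219 and 256 in the knockouts and 113, 133 and 239 in wild type (0.60 ± 0.16), and Ccnb2, a cyclin of mitosis, 227, 221 and 296 against 251, 229 and 312 (0.37 ± 0.10). Pcna, the sliding clamp of DNA replication, was lower, at 531, 536 and 452 against 536, 583 and 416 (-0.32 ± 0.09). The older brains lay outside the range of the younger ones in these genes, and none passed in limma (adjusted p = 0.264 for each).

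The lists that follow are small, and of all genes 17.8% were higher and 17.1% lower in both genotypes. Of 21 genes of extracellular matrix and growth factors of young tissue, 6 (28.6%) were higher and 2 (9.52%) lower in both genotypes, but 2 and 3 after median centring. Col1a1, a chain of type I collagen, gave 0.39 ± 0.10 in its brighter probe set and -0.23 ± 0.17 in the other, and Igf2, a fetal growth factor, -0.08 ± 0.11. Of 9 genes of GABA-A receptors and GABA synthesis, 0 were higher and 3 (33.3%) lower in both genotypes, among them Gabra3 (-0.24 ± 0.14) and Gabrb1 (-0.15 ± 0.08), with 1 higher without knockout or wild-type replicate 1. Of 9 ionotropic glutamate receptors 1 was higher and 1 lower (11.1% each), and the probe sets of Grik5 disagreed (-0.15 ± 0.10 and 0.85 ± 0.19). In 11 hypothalamic neuropeptides 1 was higher (9.09%) and 2 lower (18.2%), near the share of all genes for the lower ones. Gnrh1, the releasing hormone of gonadotropins, led these, at 142, 140.1 and 109 in the knockouts and 148, 147 and 92.3 in wild type (-0.46 ± 0.13). The counts, higher first, were 0 and 2 (28.6%) of 7 in striatal genes and 0 and 1 (16.7%) of 6 in olfactory bulb genes. They were 3 (33.3%) and 2 (22.2%) of 9 in genes of monoamine neurons.

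Genes that answer hypoxia or serve glycolysis numbered 2 higher and 2 lower of 14 (14.3% each, against 17.8% and 17.1% of all genes). Without knockout replicate 1, 5 were lower, as were 1603 of all probe sets, against 1221 with all arrays. Pgk1, a glycolytic kinase, read 2402, 2748 and 2337 in the knockouts and 2699, 2629 and 1978 in wild type (-0.28 ± 0.09). In 9 genes of MHC class I and the interferon response 1 was higher (11.1%) and 2 lower (22.2%), with 4 lower without knockout replicate 2. B2m, the light chain of MHC class I, gave -0.25 ± 0.08. In 19 vascular and meningeal genes 2 were higher and 2 lower in both genotypes (10.5% each). The number higher was 0 after median centring or quantile normalisation, and 5 were lower without knockout replicate 2 and 4 without knockout replicate 1.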
